A study of Mus musculus with 4 samples.

Results

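The proteasome subunit genes are the 49 of 19074 listed genes whose symbol begins with Psma, Psmb, Psmc, Psmd, Psme, Psmf or Psmg followed by a digit. They were counted by single-cell RNA sequencing of mouse pancreatic islets. The knockout group (Sel1L Ins1, 2 libraries) was made to lack Sel1l, an adaptor of the Hrd1 ubiquitin ligase of endoplasmic-reticulum-associated degradation, in cells that express Cre from Ins1, a promoter active in beta cells. The wild type group (Sel1L f/f, 2 libraries) carries the same floxed allele with no Cre named in the labels. Both were C57BL/6 islets, given as 7 weeks old in the sample labels and 5 weeks old in the series text, rested overnight after isolation and dissociated with trypsin. There was no control with Cre alone, so Cre and the deletion cannot be told apart. The labels do not say whether 2 libraries of a genotype came from separate animals, so the p-values measure the spread between libraries, which may be technical.

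The 26S proteasome is the protease that destroys ubiquitin-tagged proteins, including those that endoplasmic-reticulum-associated degradation pulls back into the cytosol. Its barrel-shaped core is closed by rings of alpha subunits around rings of beta subunits, which hold the catalytic sites. A regulatory particle sits on the barrel: its base is a ring of ATPases that unfolds substrates, and its lid removes ubiquitin. Interferon and immune signals replace the catalytic subunits Psmb5, Psmb6 and Psmb7 by Psmb8, Psmb9 and Psmb10, giving the immunoproteasome, which favours peptides for MHC class I. Beta cells make large amounts of proinsulin and depend on removal of misfolded chains.

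The 49 genes comprised 8 core alpha genes, 7 constitutive core beta genes, 3 immunoproteasome genes, 9 base genes, 8 lid genes, 5 activator genes, 1 inhibitor, 4 core chaperones and 3 base chaperones. The remaining gene, Psmc3ip, is a meiotic recombination factor that carries the prefix only by name and is no subunit. Psma8, the testis form of an alpha subunit, had 9 and 11 UMIs (unique molecular identifiers, each a counted transcript molecule) over all cells of the knockout libraries, against 11 and 8 UMIs in wild type libraries. It was at 0 in beta cells of every library, which allows up to 3 UMIs a library by counting error, and was not tested. Psme2b is a copy of Psme2, so reads of the pair may be split uncertainly.

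Upstream sequence is shown for 4 constitutive subunits that fell in beta cells. Psmd14 fell the most, Psmb3 fell the most among core beta genes, and Psmb5 and Psmb6 are catalytic. The bases are from RefSeq on build GRCm38.p6, within the 250 bases before each gene's start, and they stop where an exon of GENCODE vM21 begins. Capitals mark the 4 motifs searched on both strands: TGACNNNGC (the antioxidant response element bound by Nfe2l1 and Nfe2l2 with small Maf proteins), CCAAT (bound by NF-Y), the interferon-stimulated response element core (GAAA and GAAA parted by 2 bases of any kind) and GGGCGG (bound by Sp1). Psmd14 is on the plus strand of chr2:61711444-61711693, Psmb3 on the plus strand of chr11:97703184-97703398, Psmb5 on the minus strand of chr14:54618023-54618245 and Psmb6 on the plus strand of chr11:70525107-70525356.
Psmd14: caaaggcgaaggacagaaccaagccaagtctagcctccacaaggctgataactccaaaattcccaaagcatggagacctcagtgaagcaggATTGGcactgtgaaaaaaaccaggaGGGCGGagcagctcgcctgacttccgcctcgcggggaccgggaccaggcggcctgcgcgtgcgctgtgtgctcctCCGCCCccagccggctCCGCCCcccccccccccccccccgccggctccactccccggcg
Psmb3: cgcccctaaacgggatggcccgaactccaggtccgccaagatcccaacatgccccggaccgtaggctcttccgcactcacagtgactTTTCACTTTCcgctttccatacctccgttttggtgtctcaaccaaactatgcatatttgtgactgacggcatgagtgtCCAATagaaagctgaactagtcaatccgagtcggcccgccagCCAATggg
Psmb5: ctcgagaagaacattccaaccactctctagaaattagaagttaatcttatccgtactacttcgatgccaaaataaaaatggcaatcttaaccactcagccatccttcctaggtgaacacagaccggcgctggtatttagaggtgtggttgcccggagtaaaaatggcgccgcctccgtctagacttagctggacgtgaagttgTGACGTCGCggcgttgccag
Psmb6: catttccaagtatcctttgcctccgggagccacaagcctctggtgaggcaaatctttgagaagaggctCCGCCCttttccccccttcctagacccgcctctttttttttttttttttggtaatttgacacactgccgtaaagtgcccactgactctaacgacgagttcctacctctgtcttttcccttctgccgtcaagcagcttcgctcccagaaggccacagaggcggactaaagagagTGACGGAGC

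The antioxidant response element lay 47 bases before the Psmb5 start and 9 bases before the Psmb6 start, and neither of the other 2 sequences held it. Windows of 300 bases, with 50 after the start, were available for 41 of the 49 genes. TGACNNNGC was in 14.6% of those 41 windows and in 14.0% of windows of 27025 genes. CCAAT was in 34.1% of member windows, against 41.1% of all genes' windows, and GGGCGG in 56.1% of member windows, against 38.2% of all. The interferon-stimulated core occurred in 12.2% of member windows, against 3.99% of all. The 5 members with it were Psmb3, Psmd4, Psmd9, Psme1 and Psmg4. The median log2 change (knockout over wild type) in beta cells was -0.39 for members with TGACNNNGC and -0.41 for those without. With and without CCAAT it was -0.46 and -0.40, and with and without GGGCGG -0.41 and -0.41. For the interferon-stimulated core it was -0.42 and -0.41. The part of any motif in the fall was not tested. All 250 upstream bases of Psmb8 and of Psmb9 lie in annotated exons and are not printed.

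There were 4337 and 2483 cells in knockout libraries, with UMI totals of 160208775 and 99156230, against 5951 and 5841 cells in wild type libraries, with totals of 215467602 and 228515309. Beta cells (insulin genes at 10% or more of UMIs) numbered 2382 and 1370 in knockout libraries, against 3528 and 3477 in wild type libraries. Alpha cells (Gcg at 3% or more, insulin under 5%) numbered 757 and 330 in knockout libraries, against 1118 and 939 in wild type libraries. Delta cells (Sst at 3% or more, insulin under 5%) numbered 307 and 230 in knockout libraries, against 460 and 530 in wild type libraries. All 9 beta markers, 7 alpha markers and 4 delta markers were detected in their own class, although all 9 beta markers, insulin genes included, fell in knockout beta cells. Ppy, the pancreatic polypeptide gene, read 18066 and 13199.6 CPM (counts scaled to a common total that leaves out 7 hormone genes) in knockout beta cells, against 2642 and 2936 in wild type beta cells, and its part in the results was not tested. Sel1l read 87.5 and 92.3 CPM in knockout beta cells, against 125 and 124 in wild type beta cells, but counts from the 3′ end of a transcript do not check a deletion. Libraries shared between 1 and 9 cell barcodes a pair.

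Scaling decides how these genes read, because the insulin genes took 41.2% and 44.7% of UMIs in knockout beta cells, against 67.8% and 68.5% in wild type beta cells. Levels are therefore given in CPM with the 7 hormone genes (Ins1, Ins2, Iapp, Gcg, Sst, Ppy and Pyy) left out of the total. A log2 change is knockout over wild type from edgeR's quasi-likelihood test on UMIs summed per library, with TMM scaling, which set the median change of all genes near 0. A call is an adjusted p (Benjamini-Hochberg over all genes tested) under 0.05. Since transcripts were counted at their 3′ ends and not per length, levels are compared within a gene only.

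In beta cells most constitutive members fell on this scale and no immunoproteasome gene did, while per cell most members, like most genes, were higher. Of the 49 genes, 48 were tested, 38 fell and 1 rose, Psmb9. Over all 14826 genes tested, 21% were called lower and 20.2% higher. The median log2 change of the members was -0.41, with a range of -0.89 for Psmd14 to 0.29 for Psmb9. Together the members took 0.580% and 0.560% of non-hormone UMIs in knockout beta cells, against 0.737% and 0.768% in wild type beta cells. The groups did not overlap and the log2 ratio was -0.40, with an exact two-sided permutation p of 0.333, the smallest that 2 libraries against 2 can give. Without knockout replicate 2 the number that fell was 24, and without knockout replicate 1 it was 27. All of those 24 and of those 27 genes were among the 38. Both knockout libraries lay below both wild type libraries in level for 41 of the 48 members, beside 35.2% of all genes tested, and above them for 4, beside 39%.

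**Figure D1:**
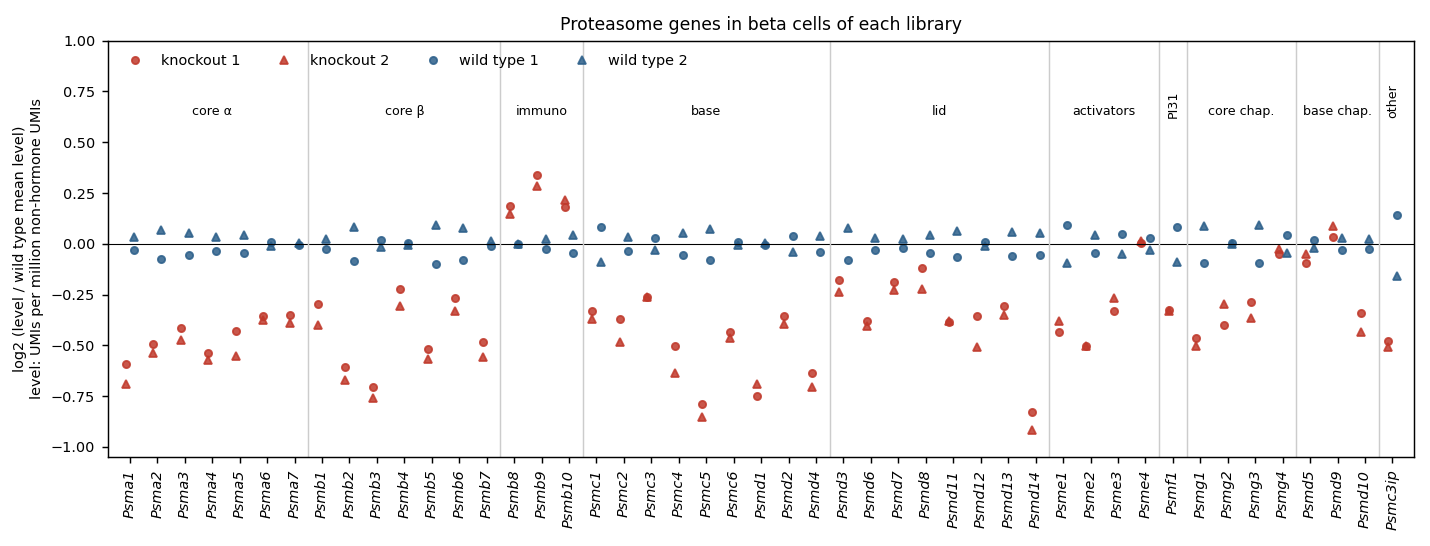
Level of 47 proteasome genes in beta cells of each library, as log2 of the ratio to the wild type mean level (vertical axis), with genes grouped by the part of the proteasome on the horizontal axis. Each point is 1 library, red for knockout and blue for wild type. Psma8 (at 0) and Psme2b (under 1 CPM) are left out. Most red points lie below the blue ones, down to Psmd14, while those of Psmb8, Psmb9 and Psmb10 lie above. Per cell, 39 of the 48 genes tested were called higher in knockout beta cells instead, beside 12603 of all 14826 genes tested.

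The direction of the fall depended on the scale. Per cell, the members summed to 132 and 144 UMIs in knockout beta cells, against 93.3 and 102 UMIs in wild type beta cells, a log2 ratio of 0.50. With sums scaled by number of cells, 39 of 48 members were called higher, beside 12603 of 14826 genes. The median member change was 0.51, while the median of all genes was 0.92. With all UMIs, hormones included, as the total, 43 members were called higher, beside 12602 of 14826 genes. The median member change was 0.51 and the median of all genes was 0.91. On both scales the members' median thus stood below that of all genes, as it did with TMM. The per-cell and all-UMI scales nearly coincided in beta cells. Total UMIs a cell had medians of 43451 and 51092 in knockout beta cells, against 46738 and 49519 in wild type beta cells. Members per cell were higher in knockout alpha and delta cells too, at log2 ratios of 0.51 and 0.35. Knockout beta cells held more non-hormone UMIs, with medians of 21703 and 23995 a cell, against 12136.5 and 12537 in wild type beta cells. Mitochondrial transcripts moved with genotype as well, at a median of 3.64% and 3.58% of UMIs in knockout beta cells, against 1.73% and 1.70% in wild type beta cells. Their part in the results was not tested.

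**Figure D2:**
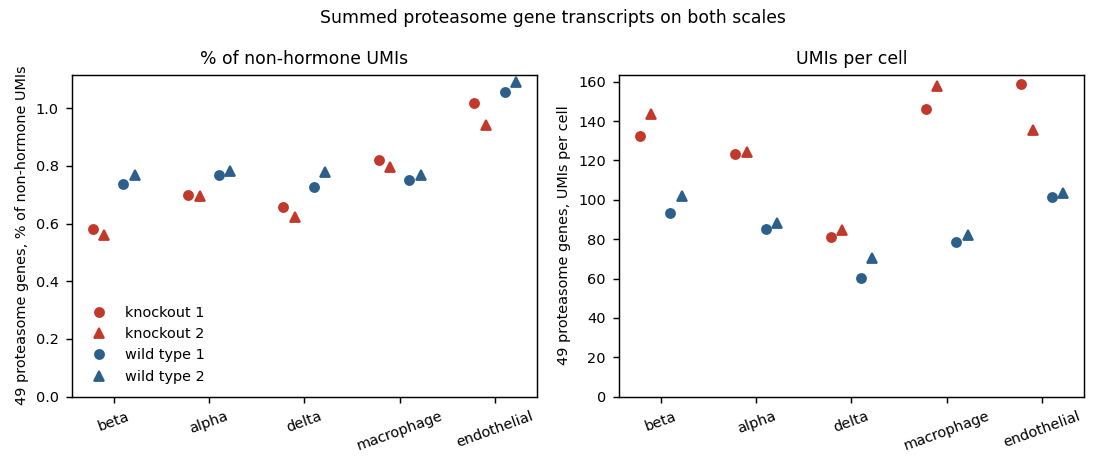
Summed UMIs of the 49 proteasome genes as a percentage of non-hormone UMIs (left) and per cell (right) in 5 cell classes. Each point is 1 library, red for knockout and blue for wild type. In beta cells the knockout libraries are the lower ones on the left (0.580% and 0.560% against 0.737% and 0.768%) and the higher ones on the right (132 and 144 UMIs against 93.3 and 102 UMIs).

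By part, and on the TMM scale from here on, all 7 alpha subunit genes that were tested fell, beside 21% of all genes. Psma1 had 122 and 114 CPM in knockout beta cells, against 179 and 188 in wild type beta cells, a log2 change of -0.66 ± 0.07 (SE, edgeR adjusted p = 0.000997). Psma6, the least changed of them, had 108 and 107 CPM in knockout beta cells, against 139.7 and 138 in wild type beta cells (log2 change -0.39). Psma7, another subunit of the ring, had 358 and 349 in knockout beta cells, against 455 and 458 in wild type beta cells. In each of these genes both knockout libraries lay below both wild type libraries, as in 35.2% of all genes tested.

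All 7 constitutive beta subunit genes fell too, beside 21% of all genes. Psmb5, the chymotrypsin-like site, had 235 and 227 CPM in knockout beta cells, against 315 and 359.9 in wild type beta cells (log2 change -0.57 ± 0.09 SE, edgeR adjusted p = 0.00401). The caspase-like site Psmb6 had 238 and 228 in knockout beta cells, against 272 and 303 in wild type beta cells (log2 change -0.32). Psmb7, the trypsin-like site, had 99.0 and 93.8 in knockout beta cells, against 137 and 139 in wild type beta cells (log2 change -0.54). These catalytic genes did not overlap between genotypes, as was so on the lower side for 35.2% of all genes tested. Among the non-catalytic members the change ran from -0.75 for Psmb3, with 134 and 129 in knockout beta cells against 221 and 216 in wild type beta cells, to -0.29 for Psmb4. Psmb4 had 283 and 267 CPM in knockout beta cells, against 332 and 330.0 in wild type beta cells.

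Of the 3 immunoproteasome genes, 1 rose and 2 were not called. Psmb9, the replacement of Psmb6, had 51.8 and 49.8 CPM in knockout beta cells, against 40.2 and 41.6 in wild type beta cells, a log2 change of 0.29 ± 0.06 (SE, edgeR adjusted p = 0.0116). It was called higher under 17 of 18 alternative settings and was not called without knockout replicate 1. The 17 include library size only and sums scaled by number of cells, where 12602 and 12603 of 14826 genes were higher. Psmb8, the replacement of Psmb5, had 95.7 and 93.3 in knockout beta cells, against 84.2 and 84.1 in wild type beta cells (log2 change 0.15, edgeR adjusted p = 0.0820). Psmb10, the replacement of Psmb7, had 83.4 and 85.5 in knockout beta cells, against 71.4 and 75.9 in wild type beta cells (log2 change 0.18, edgeR adjusted p = 0.0755). Both knockout libraries were above both wild type libraries for all 3 genes, as they were for 39% of all genes tested. Psmb8 and Psmb10 did not pass the test.

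The share of the immunoproteasome forms among catalytic subunit transcripts is a ratio within the same cells, which no scaling moves. Psmb8, Psmb9 and Psmb10 made up 28.7% and 29.4% of the UMIs of the 6 catalytic genes in knockout beta cells, against 21.3% and 20.1% in wild type beta cells. The exact (Clopper-Pearson) 95% intervals, which cover counting error only, were 28.3% to 29.2% and 28.8% to 29.9% in knockout libraries. In wild type libraries they were 20.9% to 21.7% and 19.7% to 20.5%. The wild type intervals did not overlap each other, so counting error does not measure the spread between libraries. The difference between genotypes was 8.37 percentage points (exact two-sided permutation p = 0.333, the smallest possible). In each pair the immunoproteasome form had the higher share in knockout beta cells. Psmb8 took 28.9% and 29.1% of its pair with Psmb5 in knockout beta cells, against 21.1% and 18.9% in wild type beta cells. For Psmb9 with Psmb6 the shares were 17.9% and 17.9% in knockout beta cells, against 12.9% and 12.1% in wild type beta cells. Psmb10 with Psmb7 gave 45.7% and 47.7% in knockout beta cells, against 34.3% and 35.2% in wild type beta cells.

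Transcripts of immune cell markers in beta cells were measured as well. The 8 macrophage markers summed to 46.7 and 43.3 CPM in knockout beta cells, against 92.0 and 77.4 in wild type beta cells, and 2 of the 6 tested were called lower. Nearly all of that sum was C1qa, a complement gene, with 42.3 and 39.996 in knockout beta cells, against 86.3 and 69.9 in wild type beta cells. C1qb, C1qc, Lyz2 and Adgre1 overlapped between genotypes, while Cd68, Tyrobp and Csf1r were lower in both knockout libraries. Each marker other than C1qa was under 4 CPM in every library. The only T-cell marker of 4 that the files list was at or near 0 in beta cells of every library. Of the 2 B-cell markers listed, Cd79a had 11.2 and 16.9 in knockout beta cells, against 45.1 and 37.4 in wild type beta cells, and Cd79b was under 0.05 CPM in every library. The part of immune cell RNA in the immunoproteasome share was not tested.

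**Figure D3:**
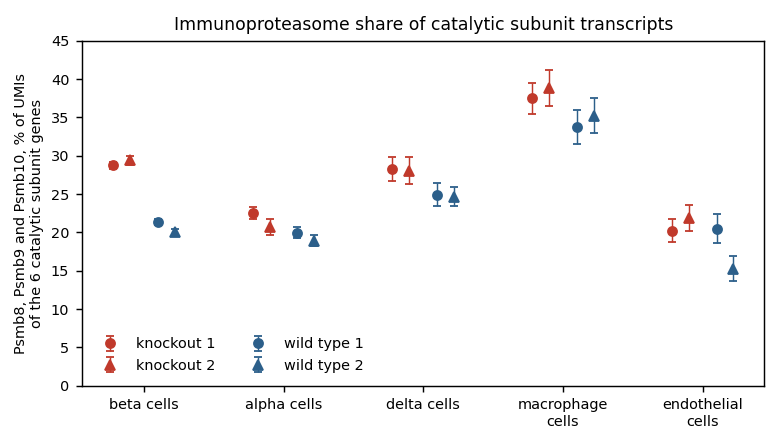
Share of the UMIs of the 6 catalytic subunit genes that belonged to Psmb8, Psmb9 and Psmb10 (vertical axis, percent) in 5 cell classes. Each point is 1 library with its 95% Clopper-Pearson interval, red for knockout and blue for wild type. In beta cells the knockout libraries sit at 28.7% and 29.4%, above the wild type libraries at 21.3% and 20.1%.

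All 9 base genes fell in beta cells, beside 21% of all genes. The ATPase Psmc5 had 124 and 119 CPM in knockout beta cells, against 204 and 226 in wild type beta cells, a log2 change of -0.84 ± 0.08 (SE, edgeR adjusted p = 0.000754). Psmc3, the ATPase that changed least, had 61.7 and 61.6 in knockout beta cells, against 75.5 and 72.4 in wild type beta cells (log2 change -0.28). The ATPase Psmc1 had 78.1 and 75.9 in knockout beta cells, against 104 and 92.3 in wild type beta cells. The ATPase genes thus fell by different amounts. These 3 did not overlap between genotypes, as was so on the lower side for 35.2% of all genes tested. Psmc4, another ATPase, had 84.4 and 77.03 CPM in knockout beta cells, against 115 and 124 in wild type beta cells (log2 change -0.59).

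The large scaffold subunit Psmd1 had 72.0 and 74.9 CPM in knockout beta cells, against 121 and 121 in wild type beta cells (log2 change -0.74 ± 0.06 SE, edgeR adjusted p = 0.000430). Its partner scaffold Psmd2 had 106 and 103 in knockout beta cells, against 139 and 132 in wild type beta cells (log2 change -0.39). The ubiquitin receptor Psmd4 had 96.4 and 92.0 in knockout beta cells, against 146 and 154 in wild type beta cells (log2 change -0.69). All of these again lay wholly below the wild type libraries, as did 35.2% of all genes tested.

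In the lid, 6 of 8 genes fell, beside 21% of all genes. Psmd14, the deubiquitinase that cleaves the ubiquitin chain, had 38.7 and 36.4 CPM in knockout beta cells, against 66.2 and 71.5 in wild type beta cells, a log2 change of -0.89 ± 0.07 (SE, edgeR adjusted p = 0.000472). The scaffold subunit Psmd11 had 113 and 113 in knockout beta cells, against 141 and 154 in wild type beta cells (log2 change -0.40). The lid genes that were not called were Psmd3, with 94.3 and 90.3 in knockout beta cells against 101 and 112 in wild type beta cells, and Psmd8, with 199 and 185 in knockout beta cells against 209 and 223 in wild type beta cells. Their libraries did not overlap either, as was so on the lower side for 35.2% of all genes tested. Their adjusted p by edgeR was 0.0617 and 0.0860.

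Activators, inhibitor and chaperones were mixed. Psme1 and Psme2 form the interferon-inducible cap of the immunoproteasome, yet both fell. Psme2 had 161 and 160.3 CPM in knockout beta cells, against 220.3 and 235 in wild type beta cells (log2 change -0.52 ± 0.07 SE, edgeR adjusted p = 0.00206). Psme1 had 109.8 and 114 in knockout beta cells, against 158 and 139 in wild type beta cells (log2 change -0.42). Psme3, which caps nuclear core particles, fell by 0.32 on the log2 scale, with 25.4 and 26.6 in knockout beta cells against 33.1 and 30.9 in wild type beta cells. Psme4, the PA200 activator of nuclei and testis, had 101 and 102 in knockout beta cells, against 103 and 99.0 in wild type beta cells, and these overlapped (log2 change -0.01 ± 0.06 SE, edgeR adjusted p = 0.872).

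Psme1 and Psme2 together held 68.1% and 68.1% of activator UMIs (with Psme3 and Psme4) in knockout beta cells, against 73.5% and 74.2% in wild type beta cells. That share was also lower in knockout cells of the other classes, at 83.4% and 84.4% in knockout alpha cells, against 88.9% and 87.8% in wild type alpha cells, and 87.1% and 85.3% in knockout delta cells, against 89.4% and 89.9% in wild type delta cells. The genotypes did not overlap in any of the 3 classes. Psme2b was at 0.735 and 0.228 CPM in knockout beta cells, against 0.627 and 0.737 in wild type beta cells, too few to read. Psmf1, the PI31 inhibitor, had 34.7 and 34.6 in knockout beta cells, against 46.0 and 40.9 in wild type beta cells (log2 change -0.35, edgeR adjusted p = 0.00800).

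Of the core chaperones, which build the alpha ring, 3 of 4 fell, beside 21% of all genes. Psmg1 had 38.6 and 37.6 CPM in knockout beta cells, against 49.9 and 56.6 in wild type beta cells (log2 change -0.50). Psmg4 had 92.0 and 93.7 in knockout beta cells, against 98.2 and 92.4 in wild type beta cells, with overlap and no call. Of the base chaperones, Psmd10 (gankyrin) fell, with 38.2 and 35.8 in knockout beta cells, against 47.5 and 49.2 in wild type beta cells (log2 change -0.41). Psmd5 had 31.7 and 32.7 in knockout beta cells, against 34.3 and 33.4 in wild type beta cells, and was not called. Psmd9 had 60.7 and 63.0 in knockout beta cells, against 58.1 and 60.5 in wild type beta cells, and was not called (log2 change 0.04 ± 0.06 SE). Psmc3ip, no subunit, had 4.04 and 3.96 in knockout beta cells, against 6.23 and 5.05 in wild type beta cells (log2 change -0.51, edgeR adjusted p = 0.0298).

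Beta cells were also compared at a like insulin share of UMIs. With insulin genes at 40% to 60% of UMIs (1150 and 795 knockout cells, against 355 and 221 wild type cells), members took 0.574% and 0.557% of non-hormone UMIs in knockout libraries, against 0.733% and 0.792% in wild type libraries. The immunoproteasome share in those cells was 27.9% and 29.1% in knockout libraries, against 23.4% and 20.2% in wild type libraries. Neither measure overlapped between genotypes. Depth still differed in those cells, with medians of 22030.5 and 24253 non-hormone UMIs in knockout libraries, against 11470 and 12728 in wild type libraries. At 60% to 75% insulin (57 and 63 knockout cells, against 2913 and 3026 wild type cells), the member share was 0.535% and 0.542% in knockout libraries, against 0.743% and 0.769% in wild type libraries. At 10% to 40% insulin (1175 and 511 knockout cells, against 95 and 28 wild type cells), it was 0.588% and 0.567% in knockout libraries, against 0.567% and 0.778% in wild type libraries, and there the genotypes overlapped. The immunoproteasome share in that lowest class was 29.6% and 29.8% in knockout libraries, against 21.9% and 27.8% in wild type libraries.

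Cre was expressed from a promoter active in beta cells, and whether it acted in alpha cells was not tested. Of 48 members tested in alpha cells, 18 fell and 1 rose, beside 9.44% of 12796 genes called lower and 6.42% called higher. The median log2 change was -0.21. Per cell 47 were higher, beside 11199 of the 12796 genes. The count of those that fell was 10 without knockout replicate 2 and 7 when hormone genes were left out and sums were scaled by library size alone. With that last scaling 496 of 12693 genes were called lower. The median of all genes was then 0.13 and that of the members -0.10. Members took 0.698% and 0.696% of non-hormone UMIs in knockout alpha cells, against 0.768% and 0.781% in wild type alpha cells (log2 ratio -0.15, exact permutation p = 0.333).

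By part, 6 of 7 core alpha genes tested, 5 of 7 core beta genes, 2 of 9 base genes and 2 of 8 lid genes fell in alpha cells, with Psme2 and the core chaperones Psmg1 and Psmg3. Psme2 changed most of the members that fell in this class, with 218 and 220.2 CPM in knockout alpha cells, against 277 and 285 in wild type alpha cells (log2 change -0.47 ± 0.06 SE, edgeR adjusted p = 0.00402). Psme3 rose, with 34.6 and 32.8 in knockout alpha cells, against 24.8 and 24.1 in wild type alpha cells (log2 change 0.36 ± 0.09 SE, edgeR adjusted p = 0.0288). That call held under 13 of 18 alternatives, including sums scaled by number of cells, where 11199 of the 12796 genes were higher. It was lost without knockout replicate 1, wild type replicate 1 or wild type replicate 2 in turn, with DESeq2 and in thinned cells. Psmb9 had 33.6 and 25.6 in knockout alpha cells, against 29.8 and 33.3 in wild type alpha cells, which overlapped.

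The immunoproteasome share in alpha cells was 22.5% and 20.7% in knockout libraries, against 19.96% and 18.9% in wild type libraries, a difference of 2.18 points. Insulin transcripts were also counted in alpha cells, where Ins2 read 2333 and 2369 CPM in knockout alpha cells, against 6372 and 7949 in wild type alpha cells. RNA carried over from beta cells was not subtracted, and its part in the changes of the alpha and delta classes was not tested.

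In delta cells, 20 of 47 members tested fell, beside 5.07% of 11659 genes called lower and 3.26% called higher. The median log2 change was -0.30. Per cell 29 were higher, beside 8801 of the 11659 genes. The count of 20 rested on single libraries. It was 2 without wild type replicate 2, 1 without knockout replicate 1 and 0 (edgeR, with 24 at an unadjusted p under 0.05) without knockout replicate 2. DESeq2 called 10, and 8 were called in cells thinned to 5000 UMIs. All 7 core alpha genes tested were among the 20, as were 5 of 7 core beta, 3 of 9 base and 4 of 8 lid genes and Psme2. Psmb3 had 178 and 173 CPM in knockout delta cells, against 234 and 246 in wild type delta cells (log2 change -0.54 ± 0.08 SE, edgeR adjusted p = 0.00331). Members took 0.658% and 0.622% of non-hormone UMIs in knockout delta cells, against 0.727% and 0.777% in wild type delta cells. The immunoproteasome share was 28.3% and 28.0% in knockout delta cells, against 24.9% and 24.7% in wild type delta cells, a difference of 3.36 points.

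The test of the difference itself set the beta-cell change against that in alpha cells of the same libraries. It called 20 members as changed more negatively in beta cells and 3 as changed more positively, beside 14% and 12.5% of 14689 genes. All 9 base genes were among the 20, together with 4 core alpha, 3 core beta and 3 lid genes and Psme3. The 3 on the positive side were Psmb8, Psmb9 and the base chaperone Psmd9. Without knockout replicate 2 the counts were 11 and 1, and without knockout replicate 1 the more negative side numbered 13. Under sums scaled by number of cells, 9 stood on the negative side and 6 on the positive, beside 1144 and 2598 of the 14689 genes. With library size alone 41 were positive, beside 9333 of the 14689 genes. The median of all genes was 0.11 and 0.67 on those scales.

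Psmd1 differed most by p. It had 125 and 147 CPM in knockout alpha cells, against 117 and 120.4 in wild type alpha cells (log2 change 0.07), where it was not called. The difference in log2 change was -0.80 ± 0.08 (SE, edgeR adjusted p = 1.73e-07). Psmd14 followed with a difference of -0.69 and Psmc5 with -0.56. Psmd2 had 127 and 141 in knockout alpha cells, against 115 and 114 in wild type alpha cells, and its difference was -0.50. Psme3 fell in beta cells and rose in alpha cells, with a difference of -0.68 ± 0.11 (SE, edgeR adjusted p = 7.94e-05).

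Base genes made up 15.1% and 15.0% of member UMIs in knockout beta cells, against 16.7% and 16.4% in wild type beta cells. In alpha cells the same share was 14.9% and 15.4% in knockout libraries, against 13.7% and 13.8% in wild type libraries. In delta cells it was 16.0% and 16.1% in knockout libraries, against 15.5% and 15.0% in wild type libraries. This share does not depend on scaling, and the knockout libraries were the lower ones in beta cells and the higher ones in alpha and delta cells, with no overlap.

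Against delta cells, 8 members changed more negatively and 1 more positively (Psmg4) in beta cells, beside 8.44% and 9.28% of 14664 genes. With library size alone 45 were positive, beside 8799 of the 14664 genes. Psmd1 again had the smallest p, with a difference of -0.70 ± 0.10 (SE, edgeR adjusted p = 0.000162). It had 102 and 88.4 CPM in knockout delta cells, against 94.0 and 88.0 in wild type delta cells, which overlapped. The next were Psmc5 (-0.50), Psmd11 (-0.37), Psmb7 (-0.36) and Psmd14 (-0.44). The call of Psmg4 was lost without any one of the 4 libraries, and without wild type replicate 2 the more negative side numbered 5. Psmb9 (0.48, edgeR adjusted p = 0.0517) and Psmb8 (0.26, edgeR adjusted p = 0.0562) were not called against delta cells.

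**Figure D4:**
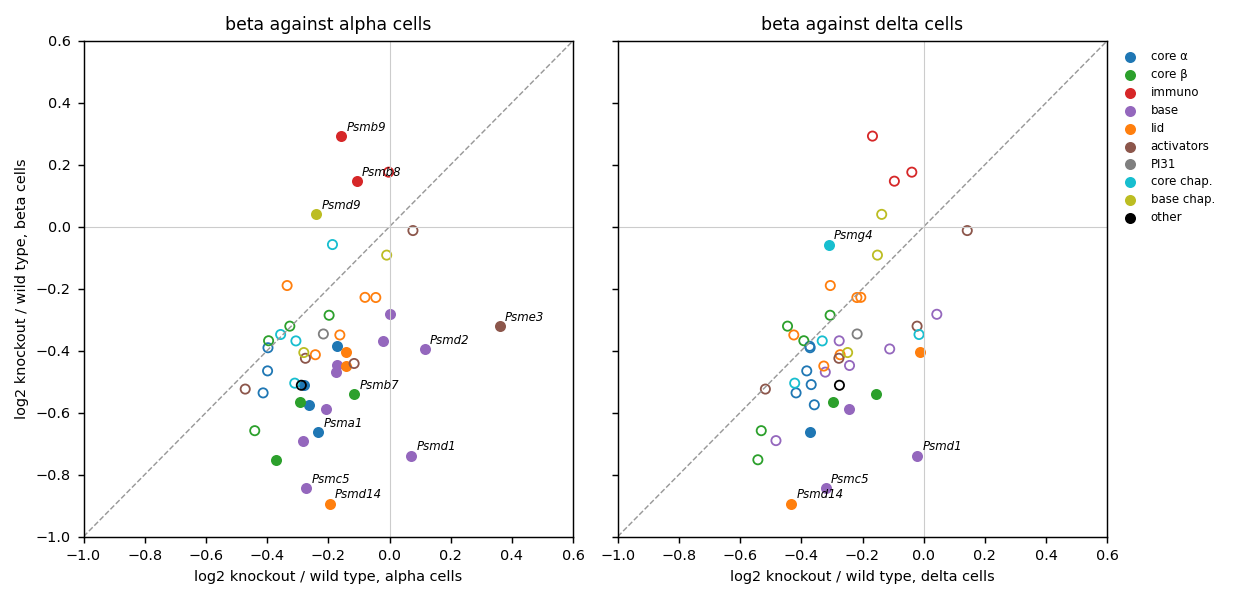
Log2 change, knockout over wild type, of each proteasome gene in beta cells (vertical axis) against alpha cells (left) and delta cells (right), from edgeR with TMM scaling. Each point is 1 gene, coloured by part, and filled where the difference between the classes was called. The dashed line marks equal change. Filled points lie below the line for Psmd1, Psmd14 and Psmc5 and above it for Psmb8, Psmb9 and Psmd9 against alpha cells. With library size alone as the scale, 41 differences against alpha cells were called positive, beside 9333 of all 14689 genes tested.

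Cells outside the islet hormone classes carried the same genes at other levels. In macrophage-like cells (78 and 57 knockout cells, against 119 and 109 wild type cells) members took 0.821% and 0.797% of non-hormone UMIs in knockout libraries, against 0.750% and 0.768% in wild type libraries. In endothelial-like cells (162 and 160 knockout cells, against 162 and 173 wild type cells) they took 1.02% and 0.941% in knockout libraries, against 1.05% and 1.09% in wild type libraries. The summed share was thus higher in knockout than in wild type macrophage-like cells, and lower in endothelial-like cells, with no overlap in either. Per cell the members were higher in knockout cells of both classes, at log2 ratios of 0.92 and 0.52, beside 0.50 in beta cells. The immunoproteasome share of catalytic UMIs was 37.5% and 38.8% in knockout macrophage-like cells, against 33.7% and 35.2% in wild type macrophage-like cells. In endothelial-like cells it was 20.2% and 21.8% in knockout libraries, against 20.5% and 15.2% in wild type libraries, and these overlapped. These classes were not fitted gene by gene.

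Factors that work on the proteasome were called lower in 10 of 13 cases in beta cells, with 3 not called, beside 21% of all genes. Per cell 12 were higher, beside 12603 of 14826 genes. The ubiquitin receptor Adrm1 had 55.6 and 49.97 CPM in knockout beta cells, against 93.1 and 97.1 in wild type beta cells (log2 change -0.87 ± 0.08 SE, edgeR adjusted p = 0.000546). Uchl5, the deubiquitinase that Adrm1 docks, had 29.6 and 28.9 in knockout beta cells, against 43.8 and 40.6 in wild type beta cells. The small lid subunit Sem1 had 457 and 434 in knockout beta cells, against 651 and 639.6 in wild type beta cells. Both knockout libraries lay below both wild type libraries for these 3, which were picked by smallest p, and for 35.2% of all genes tested. In alpha cells 5 of 13 were called lower, beside 9.44% of all genes, and in delta cells 3, beside 5.07%.

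Of 12 genes tested that encode factors transcribing proteasome genes, 3 fell and 2 rose in beta cells. These shares are near those of all genes, of which 21% were called lower and 20.2% higher. Per cell 11 were higher, beside 12603 of 14826 genes. Mafk fell, with 12.1 and 11.6 CPM in knockout beta cells, against 19.4 and 19.5 in wild type beta cells (log2 change -0.73). Mafg fell, with 65.0 and 65.2 in knockout beta cells, against 89.1 and 87.9 in wild type beta cells (log2 change -0.46). These and Maff, which also fell, encode small Maf partners of Nfe2l1 and Nfe2l2. Nfyb, an NF-Y subunit, rose, with 52.1 and 55.0 in knockout beta cells, against 40.6 and 40.1 in wild type beta cells (log2 change 0.39), and so did Irf1, an interferon-response factor. Nfe2l1 itself had 228 and 239 in knockout beta cells, against 224 and 199 in wild type beta cells, and was not called (edgeR adjusted p = 0.206). Nfe2l1, Irf1 and Maff are named after their values were seen.

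Of 18 ubiquitin and delivery genes, 5 were called higher and 5 lower in beta cells, near the 20.2% and 21% of all genes. Per cell all 18 were higher, beside 12603 of 14826 genes. Get4, of the Bag6 complex, had 68.0 and 69.8 CPM in knockout beta cells, against 45.8 and 44.4 in wild type beta cells (log2 change 0.59). The libraries of the 2 genotypes did not overlap for it, which was picked by smallest p. On the higher side the same was so for 39% of all genes tested.

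Of 8 genes of peptide transport and MHC class I, 2 rose (Tap1 and Tap2) and 3 fell (B2m, H2-K1 and Erap1) in beta cells. Of all genes, 20.2% were called higher and 21% lower. Per cell 6 of the 8 were higher and 1 lower, B2m, beside 12603 higher and 317 lower of 14826 genes. The peptide transporter gene Tap1, which neighbours Psmb9, had 11.3 and 10.0 CPM in knockout beta cells, against 7.95 and 7.83 in wild type beta cells (log2 change 0.41). B2m, the class I light chain, had 12.6 and 17.04 in knockout beta cells, against 44.7 and 43.4 in wild type beta cells (log2 change -1.61 ± 0.13 SE, edgeR adjusted p = 0.000475). Its log2 change per cell was -0.67. The heavy chain H2-K1 had 474 and 421 in knockout beta cells, against 629 and 613 in wild type beta cells (log2 change -0.49). The part of immune cell RNA in the B2m and H2-K1 values was not tested. In alpha and delta cells all 7 genes tested were not called.

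The likeness of each gene to the summed members was measured over 12 values, the 4 libraries in beta, alpha and delta cells, which share libraries and depth. Each member is part of the sum, which raises its own Pearson r with it. The members' median r was 0.64, beside -0.17 for 12909 other genes, of which 8038 were negative. The members' r ran from 0.97 for Psmb3 to -0.45 for Psme4. The 5 negative members were Psme4, Psmb9, Psmb8, Psmb10 and Psmd5. Among 12909 other genes, the 5 most like the sum were Nfu1 (0.97), Mrpl49 (0.97), Mdh2 (0.97), Hspe1 (0.97) and Zfp593 (0.96). Mdh2 is a mitochondrial malate dehydrogenase and Hspe1 a mitochondrial chaperonin, as background.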

How the data were processed

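UMI counts per gene and cell (unit: counts) were deposited by the authors as 4 tables of cells, 1 per library, made from 10x Genomics 3′ libraries. Cell Ranger 3.0.0, Seurat 2.3.4 and build mm10 are named in the submitters' processing notes. The deposited cells had at least 501 genes and under 10% mitochondrial UMIs. Depth was 99156230 to 228515309 UMIs a library. Doublets were scored per library by the Scrublet procedure (simulated doublets, 30 components, expected rate 0.8% per 1000 cells), and 150 and 49 knockout and 283 and 273 wild type cells were removed. Classes follow the shares of hormone UMIs stated in the text. Insulin itself differed between genotypes, so the beta class rests on genes that moved. Cells with insulin genes at 5% to 10% of UMIs, outside every hormone class, numbered 82 and 24 in knockout libraries, against 19 and 8 in wild type libraries. Cells in no class numbered 501 and 287 in knockout libraries, against 281 and 340 in wild type libraries. The part of this exclusion in the results was not tested. Macrophage-like and endothelial-like cells had at least 3 markers and 10 UMIs of their list. Counts were summed per class and library and fitted with edgeR 4.0.16 in R 4.3.3 (TMM, filterByExpr, quasi-likelihood test, adjusted over all genes tested). Class differences used the class by genotype interaction with library as a block. The fits were tested on simulated data. Levels (CPM without hormone genes) and shares were computed with pandas 2.3.3. Upstream sequences are from a RefSeq table. DESeq2 1.42.0, limma 3.58.1, other scalings, filters, cell thinning to 5000 UMIs and leaving out each library were alternatives. The members and gene lists were chosen with earlier results of these data known, and the fall of proteasome genes in beta cells was among those results. Libraries of a genotype differed well beyond sampling noise and were counted separately. Genes with values per library were a fixed panel of members, the extremes of each part in beta cells, members not called there or called higher, the leading class differences, up to 3 called genes of each list by smallest p, and the 5 genes most like the sum. Some genes that this rule names are not reported here.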

Additional observations from a re-analysis of the deposited data

Results flagged for a closer look

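The changes below differed between cell classes by edgeR's test of the interaction. They are the members with the 5 smallest p against alpha or against delta cells, wherever they were called, and the 4 members that differed on the positive side. Values are differences in log2 change, beta cells minus the other class. Against alpha cells they were -0.80 for Psmd1, -0.69 for Psmd14, -0.68 for Psme3, -0.56 for Psmc5, -0.50 for Psmd2, -0.42 for Psmb7 and -0.25 for Psmd11, and on the positive side 0.46 for Psmb9, 0.28 for Psmd9 and 0.26 for Psmb8. Against delta cells they were -0.70 for Psmd1, -0.50 for Psmc5, -0.44 for Psmd14, -0.37 for Psmd11 and -0.36 for Psmb7, and 0.28 for Psmg4. The Psmb9 difference against alpha cells was called under all 10 alternatives run. The Psmb8 difference was called under 8 of 10, not without wild type replicate 1 or knockout replicate 2. Both tallies include library size only, where 9333 of 14689 genes were positive. The difference of Psmd11 against alpha cells was called under 5 of 10, and that of Psmd9 was lost without knockout replicate 2. That of Psmg4 against delta cells was lost without any one library. The cause of these differences was not tested.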

How the results depend on the processing

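RLE scaling, limma-voom, filters on cells, stricter classes and leaving out hormone genes with TMM kept the counts of members that fell within 1.5 times. The choice of total turned them round. With library size only, hormones included, beta cells had 0 lower (edgeR, 0 at an unadjusted p under 0.05) and 43 higher, alpha cells 2 and 4, delta cells 4 lower, the beta minus alpha difference 0 and 41, and the beta minus delta difference 0 and 45. Of all genes on that scale, 12602 of 14826 were higher in beta cells. In alpha cells 183 were lower and 3379 higher of 12796, and in delta cells 195 were lower of 11659. For beta minus alpha 9333 of 14689 were positive, and for beta minus delta 8799 of 14664. With sums scaled by number of cells the members gave 0 and 39 in beta, 0 and 47 in alpha and 0 and 29 in delta cells. They gave 9 and 6 for beta minus alpha, beside 1144 and 2598 of 14689 genes. For beta minus delta they gave 2 and 11, beside 536 and 2827 of 14664 genes. Of all genes, 12603 of 14826, 11199 of 12796 and 8801 of 11659 were higher per cell in beta, alpha and delta cells. With hormone genes left out and library size only, 3 were higher in beta cells, beside 3148 of 14624 genes. On that scale 7 were lower in alpha cells, beside 496 of 12693 genes, and 9 in delta cells, beside 287 of 11652. DESeq2 gave 10 lower in delta cells and 0 higher in alpha cells (1 unadjusted); thinned cells gave 8 lower in alpha, 8 lower in delta and 0 higher in alpha cells (0 unadjusted). More positive in beta than delta cells were 2 with RLE scaling, 3 with no filter on low counts and 3 with stricter classes. The log2 ratio of the summed share was 0.49 in beta cells with hormones kept, and 0.50, 0.51 and 0.35 per cell in beta, alpha and delta cells.

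Leaving out 1 library gave 24 to 39 lower and 0 to 2 higher members in beta cells, 10 to 17 and 0 to 1 in alpha cells, and 0 to 15 lower and 0 to 0 higher in delta cells. For beta minus alpha it gave 11 to 20 and 1 to 4, and for beta minus delta 5 to 8 and 0 to 1. The summed share ran from -0.43 to -0.37 in beta, -0.16 to -0.14 in alpha and -0.28 to -0.18 in delta cells, and the immunoproteasome difference from 7.76 to 8.97 points. A lone library was assumed to vary like the others.

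Single members in beta cells changed sign as follows. With library size only the log2 changes were Psma1 0.25, Psma6 0.52, Psma7 0.52, Psmb3 0.16, Psmb4 0.63, Psmb5 0.35, Psmb6 0.59, Psmb7 0.37, Psmc1 0.54, Psmc3 0.63, Psmc3ip 0.40, Psmc4 0.33, Psmc5 0.0707, Psmd1 0.17, Psmd2 0.52, Psmd3 0.69, Psmd4 0.22, Psmd5 0.82, Psmd8 0.72, Psmd10 0.51, Psmd11 0.51, Psmd14 0.0197, Psme1 0.48, Psme2 0.39, Psme2b 0.47, Psme3 0.59, Psme4 0.90, Psmf1 0.56, Psmg1 0.41, Psmg4 0.85. With sums scaled by number of cells they were Psma1 0.26, Psma6 0.54, Psma7 0.53, Psmb3 0.17, Psmb4 0.63, Psmb5 0.35, Psmb6 0.60, Psmb7 0.38, Psmc1 0.55, Psmc3 0.64, Psmc3ip 0.41, Psmc4 0.33, Psmc5 0.0767, Psmd1 0.18, Psmd2 0.53, Psmd3 0.69, Psmd4 0.23, Psmd5 0.83, Psmd8 0.73, Psmd10 0.51, Psmd11 0.52, Psmd14 0.0239, Psme1 0.50, Psme2 0.40, Psme2b 0.44, Psme3 0.60, Psme4 0.91, Psmf1 0.58, Psmg1 0.41, Psmg4 0.87. In thinned cells Psme4 was 0.0903 and Psmg4 0.0686, with hormones left out and library size only Psme4 was 0.00768, and with 1 library left out Psme4 ran from -0.0246 to 0.00358, Psme2b from -1.58 to 0.0999 and Psmd9 from -0.0124 to 0.0869. None of these 4 genes was called in beta cells by edgeR with TMM. The cause was not tested.

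The replicate numbers did not pair the libraries: across genes the correlation of replicate deviations between genotypes was -0.02 in beta, 0.02 in alpha and -0.06 in delta cells. With the replicate block the members that fell numbered 37, 22 and 22 in beta, alpha and delta cells, and all 18 and all 20 of the calls without it in alpha and delta cells were among them. Depth limits delta cells most, with 230 to 530 cells a library.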
